A study of Mus musculus with 6 samples.

Results

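The brain endothelium and blood-brain barrier genes Cldn5, Cdh5, Pecam1, Slc2a1, Abcb1a, Mfsd2a, Flt1, Kdr, Tek and Tie1 were examined in the hypothalamus of diet-induced obesity (DIO) mice that received GSK-J4 or vehicle. Every probe whose gene name on the array equalled one of these symbols was taken, which gave 16 of the 56605 probes and all 10 genes. The animals were male C57BL/6J mice kept from an age of 6 weeks on a diet with 60 kcal% fat for 16 weeks, so obesity was shared by both groups. The GSK-J4 group (3 arrays) received 30 mg kg−1 of this small-molecule inhibitor of the Kdm6 enzymes, which remove the repressive H3k27me3 mark from histones, by injection in dilute dimethyl sulfoxide. The vehicle group (3 arrays) had a dose of 0. Tissue was taken at ZT 6 h, at 4 d after exposure by the series' design text, whereas the methods describe a longer course of daily injections. Each of the 3 experiments used a different mouse, and whole hypothalamus was measured, not isolated vessels.

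Brain capillaries are lined by endothelial cells sealed to each other by tight junctions, and these cells carry nutrients into the brain with dedicated transporters while efflux pumps return many drugs and metabolites to the blood. Growth of the vessels depends on vascular endothelial growth factor (VEGF) and its receptors on the endothelium, and their quiescence depends on the angiopoietins and the Tie receptors. The median eminence at the base of the hypothalamus lacks a tight barrier, and its fenestrated capillaries carry Plvap and little Cldn5.

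The array reads each transcript with probes of 60 bases. Those of Pecam1 (mm9, chr11:106540864-106540923, minus strand) and Tie1 (mm9, chr4:118144132-118144191, minus strand) are printed because their share of G and C, 50% and 53.3%, enters a comparison given further on.
Pecam1 probe: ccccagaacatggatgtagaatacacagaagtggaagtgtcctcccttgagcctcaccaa
Tie1 probe: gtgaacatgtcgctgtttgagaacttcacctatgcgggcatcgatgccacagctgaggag
Positions are those of the array files, and the exon or untranslated region behind each probe was not looked up here.

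The endothelial genes were well measured in this tissue. All 10 had a probe well above background on all 6 arrays, 12 probes in total. Of the other 4 probes, 1 for Abcb1a was well above background on the 3 vehicle arrays and on 0 of the GSK-J4 arrays, and 3 for Flt1 (A_52_P405145) and Kdr (A_52_P478193 and A_55_P2745062) were so on none. These last 3 are bounded only by background, were not tested, and had normalized log2 signals between 1.85 and 3.34. Of the 12 markers listed for the hypothalamus itself, Pomc, Hcrt, Oxt and Hdc had a probe well above background on all 6 arrays, whereas Nkx2-1, Sim1 and Otp had none on any array.

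The arrays differed in ways that touch every gene. The 3 vehicle arrays shared 1 slide and scan and the 3 GSK-J4 arrays another, so slide and treatment cannot be told apart. The vehicle arrays were brighter, with a 75th percentile of signal between 787 and 916 against 406 to 461 on the GSK-J4 arrays, and 62.8% to 63.6% against 57.7% to 58.7% of the probes were well above background. Correlations within a group were between 0.978 and 0.995. Vehicle 1 stood apart in the summed signal of the choroid plexus markers, which was 264% of the vehicle mean against 17.9% and 18.4% on the other vehicle arrays and 19.1% to 33.9% on the GSK-J4 arrays. Of these 12 markers, Ttr, Folr1, Kcnj13 and 7 others were measured on all 6 arrays, and 13 of 13 such probes were highest on vehicle 1 within its group.

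None of the endothelial and barrier genes passed an adjusted p of 0.05 between GSK-J4 and vehicle. On the 12 probes measured on all arrays, differences (GSK-J4 minus vehicle, log2) lay between −0.39 for Kdr and 0.43 for Mfsd2a, 6 above and 6 below zero. The limma test called 0 of the 13 kept probes, where 16.8% of all 34443 kept probes were called, 8.39% higher and 8.42% lower in GSK-J4. At an unadjusted p of 0.05 the count was 2 of 13 (Slc2a1 and the second Abcb1a probe) against 36.5% of all kept probes, and the methods' plain test also called 0 of 13 after adjustment. The thresholds of the study's methods, a fold change of 1.5 with an unadjusted p of 0.05, were met by 0 probes higher and 1 lower, the second Abcb1a probe, against 4.79% and 7.86% of all kept probes. The groups did not overlap for 2 of the 13 probes, both lower in GSK-J4, against 45.6% of all kept probes (24.5% higher and 21.2% lower in GSK-J4). Among the 12 probes measured on all 6 arrays, 0 were called against 17% of the 30940 such probes, and the groups did not overlap for 1, that of Slc2a1, against 46.6%. The median difference of the 13 probes was −0.04 and that of all kept probes was 0.02. In whole tissue, fewer endothelial cells and less RNA per endothelial cell cannot be told apart in any of these values.

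In simulated data with 200 of 34443 probes changed, the limma test recovered 0% of log2 changes of 0.58. In the real data 5788 probes were called, so the adjusted threshold was looser than in the simulation. The simulated recovery does not carry over to these arrays. A missing call alone does not exclude a change of this size. With 3 arrays a group, the intervals show which differences between the groups these arrays could still hide. They rest on the spread between arrays of a group. Each slide held 1 group, so an offset between slides lies outside them, as does the choice of normalization. An excluded change is therefore one of the measured difference, not of the effect of GSK-J4. The 95% interval excluded a 1.5-fold change in either direction (0.58 on the log2 scale) for 9 of the 13 probes. It reached past 1.5-fold upward for Cldn5 and Mfsd2a and downward for Kdr and the second Abcb1a probe. A 2-fold change in either direction was excluded for 11 probes, all but Mfsd2a and the second Abcb1a probe. The interval of that Abcb1a probe includes signals below background and is not an interval of a fold. On the 12 probes measured on all arrays, the distance from the difference to either end of its interval ran from 0.22 for Abcb1a to 0.67 for Mfsd2a.

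**Figure D1:**
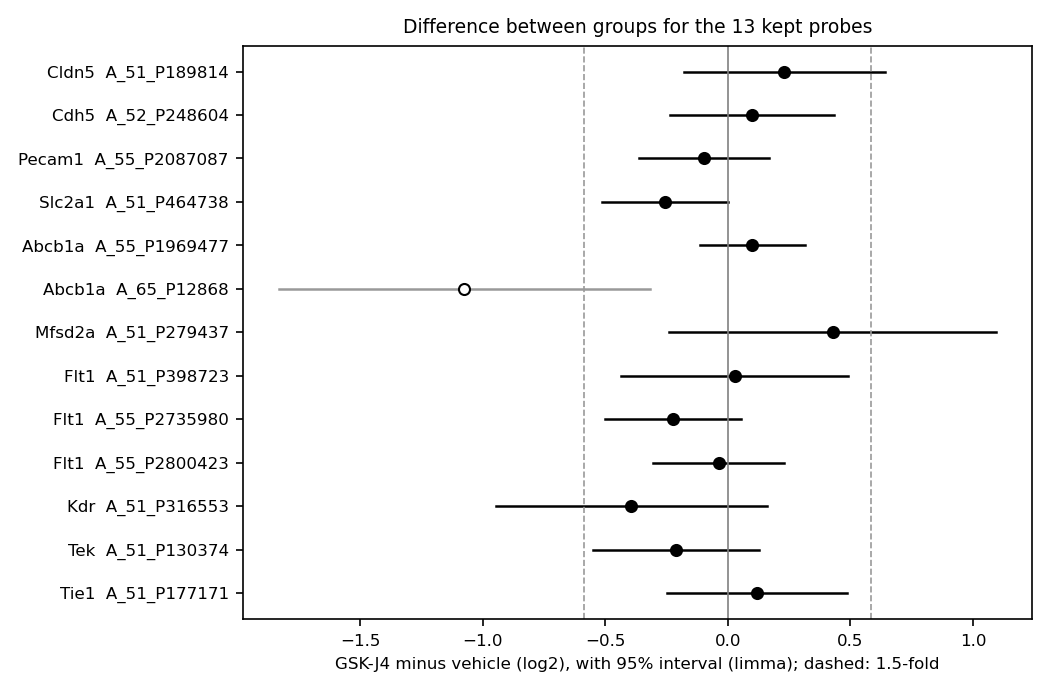
Difference of the group means (GSK-J4 minus vehicle, log2) for the 13 kept probes of the endothelial and barrier genes, with 95% limma intervals as lines and 1.5-fold as dashed lines. The open point is the Abcb1a probe that was not well above background on any GSK-J4 array, and 9 of the 13 intervals lie inside the dashed lines.

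Among the junction and adhesion genes, Cldn5 had the largest difference and none passed the test. Cldn5, the main claudin of brain endothelial tight junctions (A_51_P189814, mm9, chr16:18778046-18778105, plus strand), had log2 signals of 11.58, 11.58 and 11.51 in the vehicle mice and 11.48, 11.77 and 12.12 in the GSK-J4 mice. The lowest and the highest value were both from GSK-J4 mice, so the groups overlapped. Means were 11.56 ± 0.04 and 11.79 ± 0.32 (SD, n = 3 each). The difference was 0.23 ± 0.17 (SE), with a 95% interval from −0.18 to 0.64, an adjusted p of 0.356 in limma and a two-sided exact permutation p of 0.4. An exact test of 3 arrays against 3 cannot give less than 0.1.

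Cdh5 encodes VE-cadherin, the adhesion protein of endothelial adherens junctions (A_52_P248604, mm9, chr8:106668159-106668218, plus strand). Its log2 signals were 8.26, 8.23 and 8.13 with vehicle and 8.08, 8.27 and 8.57 with GSK-J4. The vehicle values lay inside the range of the GSK-J4 values. The difference was 0.10 ± 0.14 (SE), with an interval from −0.24 to 0.43 and a limma adjusted p of 0.629.

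Pecam1, also known as CD31, an adhesion molecule of endothelial cell contacts (A_55_P2087087), had log2 signals of 7.60, 7.45 and 7.60 with vehicle. With GSK-J4 they were 7.33, 7.39 and 7.63, which spanned the vehicle values. The difference was −0.10 ± 0.11 (SE), with an interval from −0.36 to 0.17 and a limma adjusted p of 0.539.

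Among the transport genes, Slc2a1 had a lower mean in GSK-J4 without overlap between the groups, Mfsd2a had a higher mean with overlap, and the Abcb1a probes gave differences of opposite sign. Slc2a1 encodes the glucose transporter of the barrier and is also used by astrocytes (A_51_P464738, mm9, chr4:118809864-118809923, plus strand). Its log2 signals were 13.01, 13.10 and 13.26 with vehicle and 12.85, 12.76 and 12.99 with GSK-J4. All GSK-J4 values lay below all vehicle values, though GSK-J4 3 and vehicle 1 were nearly level. Means were 13.12 ± 0.13 and 12.87 ± 0.12 (SD, n = 3 each). The difference was −0.26 ± 0.10 (SE), with an interval from −0.51 to −0.00055, an unadjusted limma p of 0.0496 and an adjusted p of 0.136. Its exact permutation p was 0.1, the smallest possible. With arrays scaled to the 75th percentile of their signal in place of quantile normalization, the difference was −0.05 with an adjusted limma p of 0.784.

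Mfsd2a carries lipid-bound docosahexaenoic acid into the brain and restrains vesicle transport through the endothelium (A_51_P279437, mm9, chr4:122624182-122624241, minus strand). Log2 signals were 10.82, 11.48 and 11.84 with vehicle and 11.92, 11.59 and 11.92 with GSK-J4. The vehicle mice were widely spread, with vehicle 1 lowest, and the GSK-J4 mice sat near the top of that range. Means were 11.38 ± 0.52 and 11.81 ± 0.19 (SD, n = 3 each). The difference was 0.43 ± 0.27 (SE), with an interval from −0.24 to 1.09 and a limma adjusted p of 0.300. Vehicle 1 is the array with the high choroid plexus signal, and without it the difference was 0.15 with an adjusted p of 0.587 in limma. Without vehicle 3 it was 0.66 and met the thresholds of the methods, with an adjusted limma p of 0.163.

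Abcb1a encodes P-glycoprotein, the drug efflux pump on the blood side of the barrier. The probe for its RefSeq transcript (A_55_P1969477, mm9, chr5:8748075-8748134, plus strand) had log2 signals of 9.70, 9.71 and 9.79 with vehicle and 9.71, 9.84 and 9.95 with GSK-J4. These ranges overlapped, and the difference was 0.10 ± 0.09 (SE) with an interval from −0.12 to 0.32 and a limma adjusted p of 0.443.

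The second Abcb1a probe (A_65_P12868, mm9, chr5:8733543-8733602, plus strand) stands for a separate Ensembl transcript record. Its log2 signals were 5.06, 4.31 and 4.19 with vehicle and 2.97, 3.66 and 3.71 with GSK-J4. The groups did not overlap, but no GSK-J4 array measured it above background, and it was kept only through the vehicle arrays, so a lower GSK-J4 value was built into its selection. Against the lowest signals well above background, the bound was at least 1.01-fold lower in GSK-J4, and this bound was not tested. The limma adjusted p of 0.0637 belongs to the fitted difference of −1.07, which includes signals below background and is not a fold. Whether the Abcb1a probes differ from each other was not tested. The lower signal of all GSK-J4 arrays moves with this value, and its part was not tested.

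**Figure D2:**
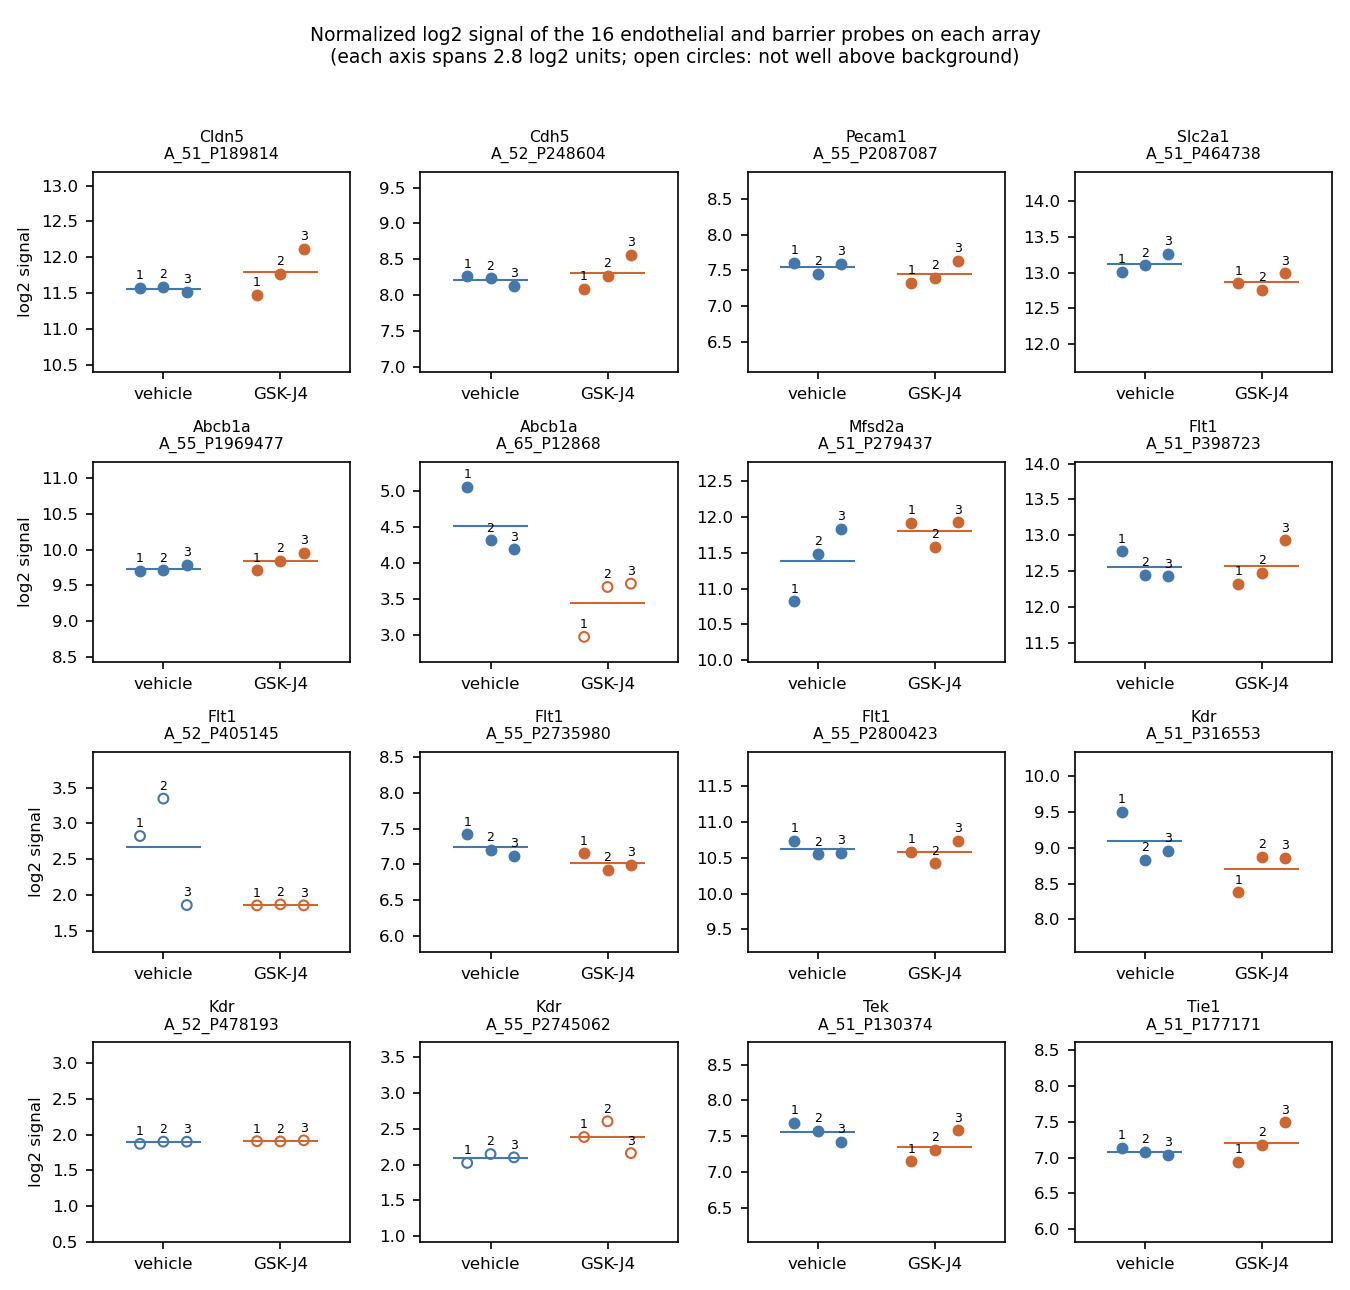
Normalized log2 signal of all 16 probes on each of the 6 arrays, with the replicate number beside each point, a line at each group mean and open circles for signals that did not clear background. Each panel spans 2.8 log2 units around its own values, so heights can be compared within a panel but not between probes. In most panels the points of the groups interleave, and GSK-J4 3 is often the highest of its group.

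Of the growth factor and angiopoietin receptors, none passed the test, and Kdr had the largest difference. Kdr, the main signalling receptor for VEGF (A_51_P316553, mm9, chr5:76329309-76329368, minus strand), had log2 signals of 9.50, 8.84 and 8.96 with vehicle and 8.38, 8.88 and 8.86 with GSK-J4. Vehicle 1 was highest and GSK-J4 1 lowest, while the other 4 arrays lay close together. Means were 9.10 ± 0.35 and 8.70 ± 0.28 (SD, n = 3 each). The difference was −0.39 ± 0.22 (SE), with an interval from −0.95 to 0.16 and a limma adjusted p of 0.257. Without vehicle 1 it was −0.19.

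Flt1, the VEGF receptor that binds the ligand tightly and signals weakly, had 3 measured probes. The probe for its RefSeq transcript (A_51_P398723, mm9, chr5:148373791-148373850, minus strand) read 12.78, 12.45 and 12.43 with vehicle and 12.32, 12.48 and 12.93 with GSK-J4 on the log2 scale. GSK-J4 mice held both extremes, and the difference was 0.03 ± 0.19 (SE) with an interval from −0.44 to 0.49 and a limma adjusted p of 0.928. Probes A_55_P2800423 (mm9, chr5:148448888-148448947) and A_55_P2735980 (mm9, chr5:148450688-148450747) share another transcript record, and their log2 differences were −0.04 ± 0.11 and −0.22 ± 0.11 (SE). The first ranged from 10.55 to 10.73 with vehicle and from 10.43 to 10.74 with GSK-J4. The second ranged from 7.12 to 7.42 with vehicle and from 6.93 to 7.16 with GSK-J4, so it overlapped by a narrow margin. None of the 3 Flt1 probes passed the test, with limma adjusted p between 0.206 and 0.928.

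Tek, known as Tie2, is the receptor for the angiopoietins (A_51_P130374, mm9, chr4:94540861-94540919, plus strand). It read 7.68, 7.57 and 7.42 with vehicle and 7.15, 7.31 and 7.58 with GSK-J4 on the log2 scale. The ranges overlapped through GSK-J4 3, and the difference was −0.21 ± 0.14 (SE) with an interval from −0.55 to 0.13 and a limma adjusted p of 0.313. Tie1, the related receptor without a tightly bound ligand of its own (A_51_P177171), read 7.13, 7.08 and 7.04 with vehicle and 6.94, 7.18 and 7.49 with GSK-J4. The GSK-J4 values enclosed the vehicle values. The difference was 0.12 ± 0.15 (SE) with an interval from −0.25 to 0.49 and a limma adjusted p of 0.599.

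Within the GSK-J4 group, most of the endothelial probes put the mice in a similar order. GSK-J4 3 was the highest array of its group on 10 of the 12 probes measured on all arrays, against 41.4% of all 30940 such probes. GSK-J4 1 was the lowest on 8 of 12, against 39.5%. The median deviation of the 12 probes from their group mean was −0.16, −0.05 and 0.17 on GSK-J4 1, 2 and 3, where that of all probes was −0.01, −0.01 and 0.03. Deviations on the vehicle arrays were smaller, with medians of 0.05, −0.02 and −0.05, although vehicle 1 was the highest of its group on 8 of 12 probes. The median SD within a group was 0.18 for these probes and 0.15 for all probes. These are descriptions of 6 arrays on probes that share the same RNA, with no test.

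Calls on the members did not change when GSK-J4 3 was left out, but several signs did. Without it, the log2 differences were 0.07 for Cldn5, −0.03 for Cdh5, −0.03 for Tie1 and −0.15 for the RefSeq probe of Flt1, against 0.23, 0.10, 0.12 and 0.03 with all arrays. Slc2a1 was then at −0.32 and Kdr at −0.47. The blood markers followed the same order in the GSK-J4 mice, with GSK-J4 3 highest and GSK-J4 1 lowest on 6 of 6 probes measured on all arrays. Their summed signal was 77.9%, 95.1% and 112% of the vehicle mean on GSK-J4 1, 2 and 3, and 98.5%, 116% and 85.5% on vehicle 1, 2 and 3. Hbb-b1, Hba-a1, Alas2, Hbb-bt and Hba-a2 were the blood genes measured on all arrays. Other lists shared parts of this order. GSK-J4 1 was lowest on 9 of 11 microglia and macrophage, 11 of 13 meninges and fibroblast and 19 of 29 pericyte and smooth muscle probes. On these lists GSK-J4 3 was highest on 5, 0 and 13 probes. It was highest on 10 of 17 astrocyte and 14 of 24 neuron probes, with GSK-J4 1 lowest on 8 and 9. The part of blood in the order of the endothelial probes was not tested.

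**Figure D3:**
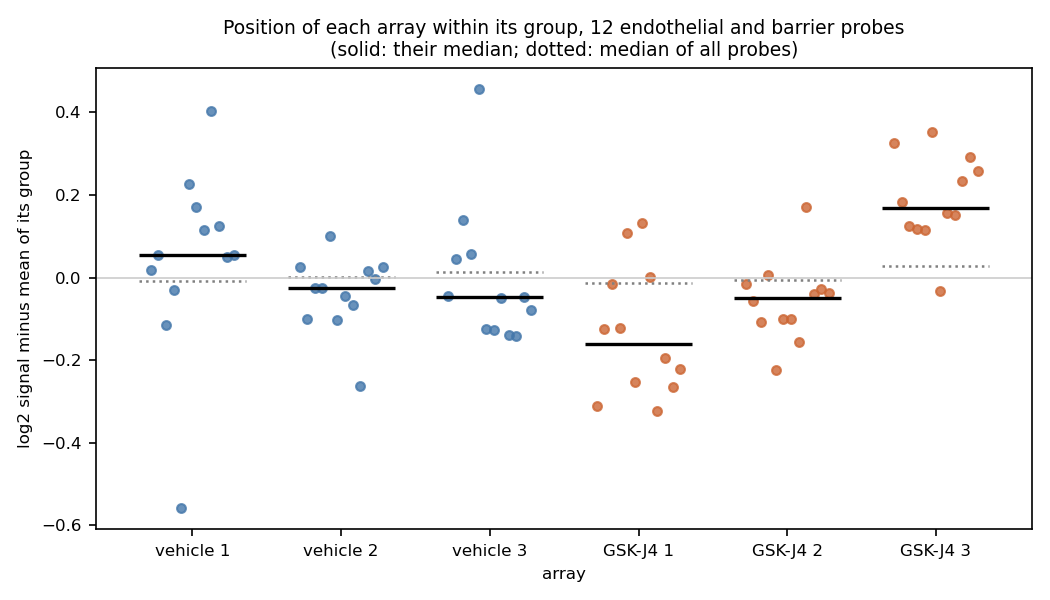
Log2 signal minus the mean of its group for the 12 probes measured on all arrays, with 1 point per probe, a solid line at their median and a dotted line at the median of all probes measured on all arrays. The solid line runs from −0.16 on GSK-J4 1 to 0.17 on GSK-J4 3, and the lowest point on vehicle 1 is Mfsd2a.

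Summed signals of other cell types overlapped between the groups for pericytes and microglia. They lay higher with GSK-J4, without overlap, for the markers of astrocytes, of the hypothalamus and of tanycytes and ependyma, and lower without overlap for those of neurons. The summed signal of the pericyte and smooth muscle list was 94.6% to 111% of the vehicle mean with vehicle and 80.03% to 115% with GSK-J4, and that of the microglia and macrophage list 97.8% to 103% and 81.9% to 115%. A sum is weighted to the brightest probes. By probe, the microglia and macrophage list had a median difference of 0.34. Of its 12 kept probes, 2 were called higher and 0 lower (16.7%, against 16.8% of all kept probes). GSK-J4 3 had the lowest sum of this list but the highest median deviation by probe (0.27). Astrocyte markers, whose cells also express Slc2a1, were at 99.3% to 101% with vehicle and 106% to 114% with GSK-J4. Hypothalamus markers were at 91.6% to 110% and 118% to 147%, and tanycyte and ependyma markers at 95.2% to 106.7% and 115% to 123%. Neuron markers were at 98.7% to 101% with vehicle and 90.5% to 97.4% with GSK-J4. By probe, 2 of 17 astrocyte probes were called higher and 1 lower (17.6%, median 0.18). At the thresholds of the methods, 0 astrocyte probes were higher and 2 lower. Of 24 neuron probes, 2 were called higher and 7 lower (37.5%, median −0.20). The hypothalamus list kept 7 of 20 probes, with 1 called higher and 0 lower (median 0.10). Of 9 tanycyte and ependyma probes, 1 was called higher and 0 lower (median 0.16). The part of tissue composition in the differences of the endothelial genes was not tested.

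Base composition of the probes moved with the difference between the groups across the array. The median difference of all kept probes was −0.16 for probes with up to 35% G and C, 0.06 for those with 41.7% to 45% and 0.23 for those with 51.7% to 55%. The endothelial probes with 50% or more were Cldn5 (55%), Tie1 (53.3%), Abcb1a (51.7%) and Pecam1 (50%), with differences of 0.23, 0.12, 0.10 and −0.10. Among the probes with under 37%, Kdr, Slc2a1 and 1 Flt1 probe had differences of −0.39, −0.26 and −0.22 and Cdh5 had 0.10. After the trend on base composition was removed within each array, Cldn5 was at −0.01, Abcb1a at −0.11, Tie1 at −0.11, Pecam1 at −0.30, Slc2a1 at −0.17 and Kdr at −0.25. Mfsd2a was then at 0.49, Cdh5 at 0.24, Tek at −0.21, the second Abcb1a probe at −1.15 and the Flt1 probes A_51_P398723, A_55_P2735980 and A_55_P2800423 at 0.06, −0.08 and −0.11. Cdh5 and Pecam1 thus lay farther from zero than before, Slc2a1 and Kdr nearer, and none of the 13 probes was called. The direction of Cldn5, Tie1 and the RefSeq probe of Abcb1a therefore depended on this step.

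**Figure D4:**
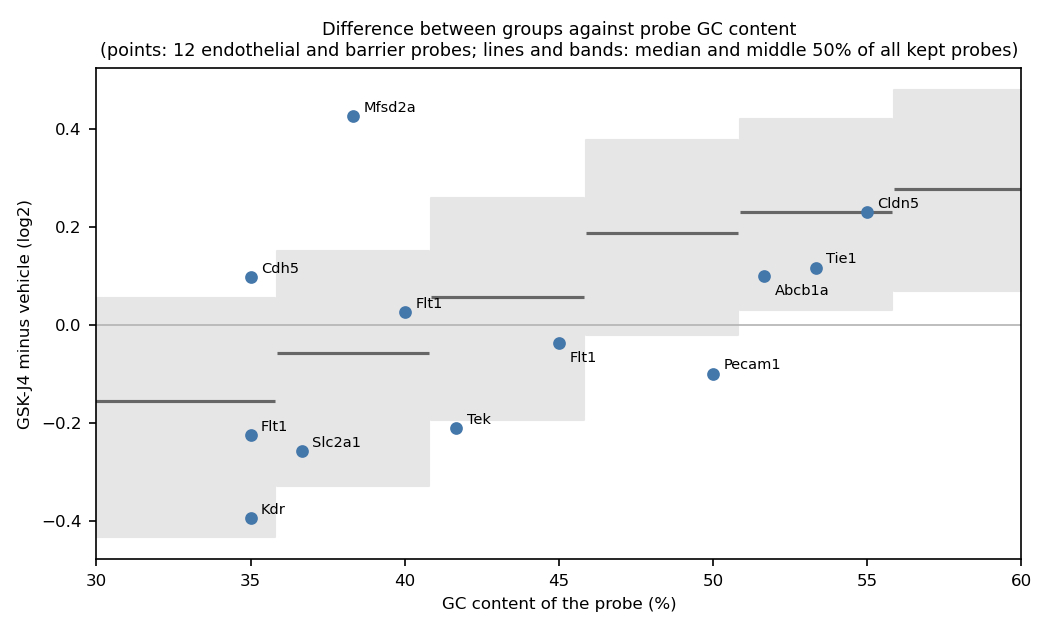
Difference between the groups (GSK-J4 minus vehicle, log2) against the share of G and C in the probe, for the 12 endothelial and barrier probes measured on all arrays. Lines and bands give the median and the middle 50% of all kept probes in each range of base composition, which climb from −0.16 to 0.28, and 8 of the 12 points lie in the band of their range.

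The wider set of vascular genes held some calls, at a share under the 16.8% of all kept probes in 6 of 7 lists. In the tight junction and adhesion list, 1 of 30 kept probes was higher and 3 were lower (13.3%), with a median difference of −0.19. The lower ones were 1 probe each of Ctnnd1 (−0.69, adjusted p = 0.0179), Ctnnb1 (−0.48, 0.0212) and Tjp1 (−0.30, 0.0397), which encode catenins and a scaffold protein of cell junctions found in most cell types. The second Tjp1 probe (−0.54, adjusted p = 0.0968) was not called. Nor were the other kept probes of Ctnnb1, at −0.45 and −0.09 (limma adjusted p of 0.105 and 0.490). Those of Ctnnd1, at −0.24 and −0.13, were not called either (limma adjusted p of 0.199 and 0.579). With the trend on base composition removed, 0 probes were higher and 2 lower, and the called Tjp1 probe was at −0.16 (limma adjusted p = 0.170). Occludin, Ocln, a membrane protein of the tight junction, had a difference of −0.06 with a limma adjusted p of 0.889, and Sele and Selp, adhesion molecules of inflamed endothelium, were not measured on any array.

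Transport genes other than the members were called at 11.1% (4 higher and 1 lower of 45 probes, median 0.07). The called probes with the smallest adjusted p in limma were those of Ager (0.49, adjusted p = 0.0162), a receptor for glycated proteins, Cav1 (0.55, 0.0228), the caveolin of vesicle transport, and Slc3a2 (0.49, 0.0307), the heavy chain of the large amino acid transporter. The Cav1 signals were low, at log2 values of 4.37 to 4.41 with vehicle and 4.80 to 5.08 with GSK-J4. Over the alternative settings the Cav1 difference ran from 0.19 to 0.62. The other Cav1 probe did not clear background in either group and was not tested. The other kept Slc3a2 probes, at 0.24 and −0.12, were not called (limma adjusted p of 0.0776 and 0.308). Another of the higher calls was a second Ager probe (0.95) kept only through the GSK-J4 arrays. The remaining kept Ager probes, at 0.23, 0.48 and −0.20, were not called (limma adjusted p of 0.143, 0.204 and 0.728). With the trend on base composition removed, 1 probe was higher and 1 lower with a median of −0.02, and Ager (0.25, limma adjusted p = 0.0682) and Slc3a2 (0.41, 0.0516) were not called. The efflux pump Abcg2 had a difference of 0.07 with an adjusted limma p of 0.644. The thyroid hormone carrier Slco1c1 had differences of −0.06 and −0.97 on its probes, with adjusted limma p of 0.855 and 0.403, and the second value rested on a single low array, GSK-J4 3 at 7.62. Plvap, the protein of fenestrated capillaries, read 10.07, 9.74 and 9.59 with vehicle and 9.92, 9.86 and 9.83 with GSK-J4, a difference of 0.07 with an adjusted limma p of 0.732.

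In VEGF and angiopoietin signalling, 1 of 44 probes was higher and 5 were lower (13.6%, median −0.14). Arnt, a partner of the hypoxia-inducible factors, was lower on 2 probes (−0.79 and −0.93, limma adjusted p of 0.0250 and 0.0368), and its other probe, with a difference of −1.40 and a single low array in GSK-J4 3, was not called. The VEGF co-receptor Nrp1 supplied the other 3 lower calls (−0.92, −0.56 and −0.82, limma adjusted p of 0.0398, 0.0399 and 0.0443), while 4 further Nrp1 probes, at −0.66, 0.03, 0.12 and 0.23, were not called. In this list 1 probe was higher and 3 were lower once the trend on base composition was removed. The ligand Vegfa gave differences of −0.48, −0.50 and 0.50 on its 3 kept probes, none called. Flt4, Angpt4 and Aplnr were not measured on any array.

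Endothelial transcription factors and surface genes had 4 probes higher and 0 lower of 55 (7.27%), with a median difference of 0.19. They included 1 probe each of Ly6c1 (0.42, adjusted p = 0.0259) and Acvrl1 (0.52, 0.0276). Another was a probe of Vwf, which encodes von Willebrand factor (0.96, adjusted p = 0.0231). It was well above background on 2 of 3 vehicle arrays and kept only through the GSK-J4 arrays, so a higher GSK-J4 value was built into its selection. The other Vwf probes were at 0.08 and −0.19. The other kept probes of Ly6c1 (0.29) and Acvrl1 (0.23) were not called (limma adjusted p of 0.154 and 0.325). With the trend on base composition removed, 2 probes of this list were higher and 0 lower, with a median of 0.10, and the Acvrl1 probe was not called (0.29, limma adjusted p = 0.0862). Ly6c1 is a surface protein of brain endothelium and some blood cells, and Acvrl1 is a receptor for bone morphogenetic proteins. GSK-J4 3 was the highest of its group on 33 of 50 probes of this list measured on all arrays (66%). In the VEGF and angiopoietin list it was so on 9 of 38 (23.7%).

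Wnt signalling, which induces and maintains the barrier, was called at 12.9% (3 higher and 1 lower of 31, median 0.04). The ligand Wnt7b was higher on both its probes (0.67 and 0.50, limma adjusted p of 0.0163 and 0.0275), and Axin2, a feedback inhibitor that Wnt signalling switches on, was called lower on its kept probe (limma adjusted p = 0.0272). That Axin2 probe was well above background on 2 of 3 GSK-J4 arrays and kept only through the vehicle arrays, so its lower GSK-J4 value was built into its selection. With detection required on all 6 arrays the list had 3 higher and 0 lower calls, and with the trend on base composition removed 2 higher and 0 lower, a median of −0.07 and Axin2 at −1.13 (limma adjusted p = 0.0568). Pericyte and smooth muscle genes were called at 20% (4 higher and 2 lower of 30, median 0.02), among them Higd1b (0.65, limma adjusted p = 0.0280), Tgfb1 (0.64, 0.0249) and, lower, the pericyte regulator Rgs5 (−0.57, 0.0186). With the trend on base composition removed, 0 probes of this list were higher and 2 lower, with Higd1b at 0.41 (limma adjusted p = 0.0786), Tgfb1 at 0.41 (0.0621) and Rgs5 still called at −0.48 (0.0280). The pericyte receptor Pdgfrb was at 0.04 with an adjusted limma p of 0.773. Vascular basement membrane genes were called at 7.14% (2 higher and 0 lower of 28, median −0.16), 1 probe each of the laminins Lamc1 (0.81, limma adjusted p = 0.0481) and Lama4 (0.45, 0.0486), and the other kept Lamc1 probes were at −0.22 and −0.26. Removal of the trend on base composition left 0 of these 28 called. Leaving out any 1 vehicle array left 0 called probes in all 7 lists, with 5 to 13 called over the whole array. The summed signal of the endothelial transcription factors and surface genes was 98.9% to 101.5% of the vehicle mean with vehicle and 109% to 123% with GSK-J4. Tight junction and adhesion genes were at 94.7% to 108% and 87.6% to 88.1%. VEGF and angiopoietin genes were at 98.3% to 101.7% and 90.4% to 97.4%. Sums of the other vascular lists overlapped between the groups.

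**Figure D5:**
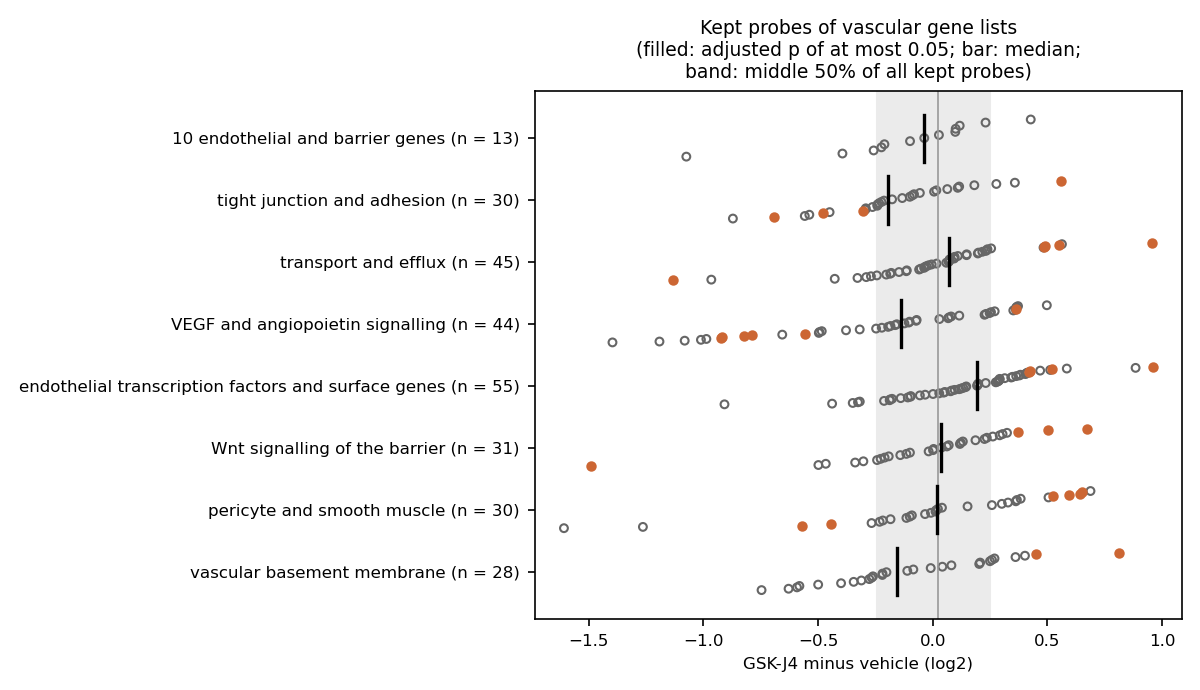
Difference between the groups (GSK-J4 minus vehicle, log2) of every kept probe in the endothelial and barrier genes and in 7 further vascular lists. Filled points passed an adjusted p of 0.05 in limma, bars are list medians, the band is the middle 50% of all kept probes, and the vertical placement within a list follows the size of the difference only. The 13 probes of the endothelial and barrier genes hold no filled point, and their median of −0.04 lies within the band.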

How the data were processed

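RNA of the hypothalamus was labelled with Cy3 and hybridized to 6 one-colour Agilent SurePrint G3 Mouse GE arrays. The authors deposited each spot's background-corrected intensity and detection flags, from Feature Extraction 10.7.1.1. The deposited log2 table, described by the methods as quantile normalized in GeneSpring, supplied the signals, and detection came from the scanner files.

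The 34443 of 56605 probes that cleared background on every array of 1 group or both were fitted with lmFit and eBayes in limma 3.58.1 (R 4.3.3), two-sided, without covariates, with Benjamini-Hochberg adjustment over all kept probes. Intervals are at 95%. Single probes were also tested by exact permutation of the 20 orders of arrays. The procedure was tested on simulated data.

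The named probes are all those of the 10 genes, at most the 3 smallest adjusted p past 0.05 in each vascular list, and Plvap, Pdgfrb, Rgs5, Vegfa, Ocln, Tjp1, Abcg2, Slco1c1 and Vwf. Some genes that the rule would name are not reported here. Members and lists were chosen with earlier results of these data known. Marker lists for oligodendrocytes, meninges and pituitary were also summed, at 93.6% to 95.6%, 101% to 123% and 101% to 133% of the vehicle mean on the GSK-J4 arrays and 90.9% to 107.1%, 72.8% to 126% and 88.6% to 108% on the vehicle arrays. Array names were those of the files, and 24787 of 37074 gene names, all 10 members among them, were in the RefSeq table (GRCm38.p6). Alternatives covered normalization, background, dim probes, the test, pairing, base composition, probe choice and each array left out. The number of arrays limits the precision.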

Additional observations from a re-analysis of the deposited data

How the results depend on the processing

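Of 217 recomputed differences of single endothelial probes, 203 kept their sign and their side of the threshold. With 75th percentile scaling the second Abcb1a probe was called (−1.17, limma adjusted p = 0.0407), so 1 probe was lower at the adjusted p, and the Flt1 probe A_55_P2800423 was at 0.049 and Tie1 at −0.018. With normexp that Flt1 probe was at 0.039. With the trend on base composition removed, Cldn5 was at −0.0061, Abcb1a (A_55_P1969477) at −0.11 and Tie1 at −0.11. At the thresholds of the methods, the count of lower probes was 0 with normexp, with detection required on all 6 arrays and with 1 probe per gene, in the last pair because the second Abcb1a probe was not tested. Leaving out each array in turn gave 0 to 1 higher probes at those thresholds (Mfsd2a without vehicle 3), and differences of −0.11 to 0.042 for Flt1 A_55_P2800423, −0.15 to 0.15 for Flt1 A_51_P398723, −0.028 to 0.25 for Tie1 and −0.031 to 0.21 for Cdh5.

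Over all kept probes, the 5788 calls became 3765 without the filter on dim probes, 3315 with the methods' t-test at equal variances, 93 with it at unequal variances, 3687 with base composition removed, 3711 with 1 probe per gene and 5 to 4165 with each array left out (10, 13 and 5 without vehicle 1, 2 and 3, and 2402 without GSK-J4 1). The share higher among the calls was 49.9%, 39.7% with base composition removed and 58.1% of 8674 with 75th percentile scaling. Replicate numbers did not pair the arrays (correlations of deviations 0.004, 0.017 and 0.101 for numbers 1, 2 and 3), and with the replicate block 0 probes were called, 0 of them endothelial. A slide block was not run because each slide held 1 group. Signal over background was lower on the GSK-J4 arrays, which limits the dim probes. The causes of these changes were not tested.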
